A study of Mus musculus with 11 samples.

Results

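The 36 genes described here encode the enzymes that break down glucose to pyruvate, the enzymes and carriers that make and move lactate, and the enzymes that build and degrade glycogen. They were taken by symbol from a list of 20 glycolytic genes, 4 lactate genes and 12 glycogen genes, and all 36 were found among the 53465 genes of the count table. The genes were measured by RNA sequencing of quadriceps, a large thigh muscle, from aged mice. All mice, of a strain spelled C57L/6JRj by the submitters, were 18 months old when treatment began. Over 10 weeks they received either the solvent DMSO (5 libraries) or myriocin (6 libraries), an inhibitor of serine palmitoyltransferase, the first enzyme of de novo sphingolipid synthesis. Whether every library came from its own mouse is not stated, and p-values here reflect the variation among the sequenced samples, which may be technical. Dose and sex were not stated either.

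As background, muscle stores glucose as glycogen and can burn it faster than oxygen arrives. In glycolysis glucose 6-phosphate is split into triose phosphates and oxidised to pyruvate, and lactate dehydrogenase turns pyruvate into lactate to recover NAD. Most steps are catalysed by one of several isoenzymes, and adult muscle fibres, above all the fast ones, use a muscle form that differs from the form of liver, brain or dividing cells.

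Each library held 22241131 to 23163721 reads counted in genes. The skeletal muscle markers Acta1, Ckm, Ttn, Des and Mb were found in every library, and the fast fibre markers summed to far more CPM (read counts scaled to a common library size) than the slow fibre markers in each of them. The 7 slow fibre markers differed widely between libraries, summing to 79.4 to 703 CPM with DMSO and 65.2 to 711 CPM with myriocin. Their sums were highest in DMSO replicates 2 (703 CPM) and 3 (565 CPM) and Myriocin replicate 5 (711 CPM). Libraries stood apart in other markers. The 4 neutrophil markers summed to 439 CPM in DMSO replicate 2 against 0.360 to 22.2 CPM in the other DMSO libraries and 0.561 to 59.8 CPM with myriocin, with Mpo at 0 in DMSO replicates 3 and 5 and Myriocin replicate 1, and Retnlg at 0 in DMSO replicate 5 and Myriocin replicate 6. The 5 adipocyte markers summed to 1145 CPM in DMSO replicate 2, 141 to 286 CPM in the other DMSO libraries and 132 to 421 CPM with myriocin. The 6 liver markers summed to 111, 91.4 and 111 CPM in DMSO replicates 4 and 5 and Myriocin replicate 4, and to 5.53 to 27.6 CPM in the other 8 libraries. The part of these other cell types in the results below was not tested.

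Together the 36 genes took 6.08% ± 0.324 of the gene reads with DMSO (SD, n = 5) and 6.43% ± 0.362 with myriocin (SD, n = 6). In the single libraries the share was 5.79%, 5.88%, 5.85%, 6.47% and 6.39% in DMSO replicates 1 to 5, and 6.3%, 6.46%, 6.29%, 7.11%, 6.39% and 6.04% in Myriocin replicates 1 to 6. The groups overlapped, and Myriocin replicate 4 held the highest share. Of the 36 genes, 8 (Aldoa, Pygm, Gapdh, Eno3, Pfkm, Pkm, Ldha and Tpi1) were among the 50 genes with the most reads, 25 exceeded 100 CPM on average, and 5 (Pfkfb2, Pgam1, Phkg2, Pgm2 and Aldoc) stayed under 10 CPM. Per kilobase of exon, the level was highest for Aldoa at 6448 CPM, followed by Eno3 at 3174, Pygm at 2676, Pgam2 at 2189, Gapdh at 1599 and Pfkm at 1267 CPM per kilobase. At the other end stood Pgm2 at 0.860, Pfkp at 0.775 and Aldoc at 0.184 CPM per kilobase. Exon lengths are those of the union of all annotated transcripts, so genes with long alternative exons come out low on this scale.

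**Figure D1:**
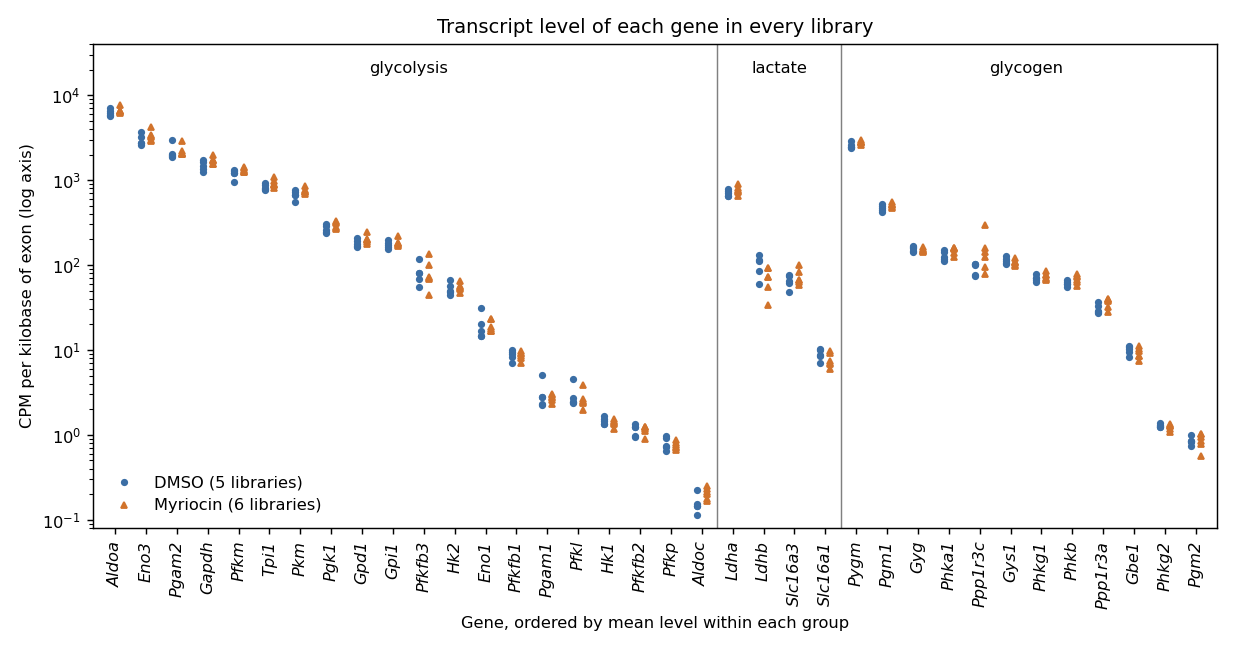
Level of each of the 36 genes in every library, in CPM per kilobase of exon on a log axis; blue circles are the 5 DMSO libraries and orange triangles the 6 myriocin libraries, ordered by mean level within glycolysis, lactate and glycogen genes. Levels run from 6448 CPM per kilobase for Aldoa to 0.184 for Aldoc, and the symbols of both treatments overlap for every gene.

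With myriocin none of the 36 genes passed the test. All 36 passed the filter on low counts and were tested by edgeR's quasi-likelihood test among 14117 genes, of which 0% (0 genes) had a Benjamini-Hochberg adjusted p under 0.05. The lowest adjusted p among the 36 genes was 0.936. At an unadjusted p under 0.05 stood 2 of the 36 genes, Ppp1r3a and Ppp1r3c, against 4.68% of all genes tested (660 genes), a similar share. Both had higher fitted levels with myriocin, as did 2.33% of all genes at such a p, and 0 of the 36 had lower ones, against 2.34%. DESeq2 placed 6 of the 36 there (4.67% of all genes) and limma-voom 3 (4.68%). The count of 2 depended on single libraries. It was 0 without Myriocin replicate 6 (3.98% of all genes), and 1 without DMSO replicate 1 (4.88%) or Myriocin replicate 1 (4.95%), 2 (3.65%) or 3 (3.51%). Leaving out DMSO replicate 5 gave 4 (4.21%) and leaving out DMSO replicate 4 gave 6 (4.95%). With Myriocin replicate 4 left out it was 3, where 10.3% of all genes had such a p. Without all 3 libraries that hold liver transcripts it was 11, of which 10 had a positive fold change, against 7.12% of all genes. Without the 3 libraries farthest out on principal components (DMSO replicates 2 and 5 and Myriocin replicate 4) it was 6, against 7.97%. For 0 of the 36 genes did all myriocin libraries lie on one side of all DMSO libraries, as they did for 0.361% of all genes.

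The log2 fold change, myriocin minus DMSO, was positive for 24 of the 36 genes (66.7%) and for 46.3% of all genes tested (negative for 12, against 53.7%), with a median of 0.07 against -0.01 over all genes. The median of the 36 was 0.11 without DMSO replicate 4 and also without DMSO replicate 5. Without TMM scaling it was positive for 20 (55.6%), and the median of the 36 was then 0.03. The share of all genes with a positive fold change was not computed without TMM, so 46.3% is no background for that count. The differences were small: the 95% interval of 30 genes lay within 0.5 of 0 on the log2 scale, and that of 34 within 1. The 6 with wider intervals were Pfkl, Pfkfb3, Aldoc, Pgam1, Ldhb and Ppp1r3c. In all 6 myriocin libraries Pfkm, Aldoc, Gapdh, Pgk1, Pkm, Pygm and Pgm1 exceeded the DMSO mean, and Ldhb alone was below it in all 6. The share of all genes tested with such a pattern was not computed, so these counts have no background to be read against.

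Muscle and vessel markers were also compared between the groups. Over all genes tested, 46.3% had positive and 53.7% negative fold changes, and 4.68% had an unadjusted p under 0.05 in edgeR's test. Of the 10 fast fibre markers 6 had positive fold changes, and 2 had an unadjusted p under 0.05 in edgeR's test, Myh4 (log2 fold change 0.20, unadjusted p = 0.0305) and Myl1 (0.24, unadjusted p = 0.0356). Their sum was 148986 to 166184 CPM with DMSO and 161443 to 175930.4 CPM with myriocin. Of the 5 skeletal muscle markers 3 were positive, with Ttn at 0.26 (unadjusted p = 0.0165 by edgeR's test), and of the 7 slow fibre markers 2 were. All 6 endothelial markers had negative fold changes, with Cldn5 at -0.51 (unadjusted p = 0.00263 by edgeR's test), and their sum was 239 to 278 CPM with DMSO and 192 to 271 CPM with myriocin. Both sums overlapped between the groups. In other cell types, fold changes were positive for 5 of 5 erythroid, 4 of 5 fibroblast and 2 of 5 macrophage markers. Positive values were also found for 1 of 5 adipocyte and 0 of 4 Schwann cell markers. Of the markers tested, 0 of 5 liver, 0 of 2 neutrophil and 0 of 2 smooth muscle markers were positive. The median log2 fold change was -0.39 for the adipocyte and -2.38 for the neutrophil markers. None of these markers passed the adjusted threshold, and their part in the values of the 36 genes was not tested.

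**Figure D2:**
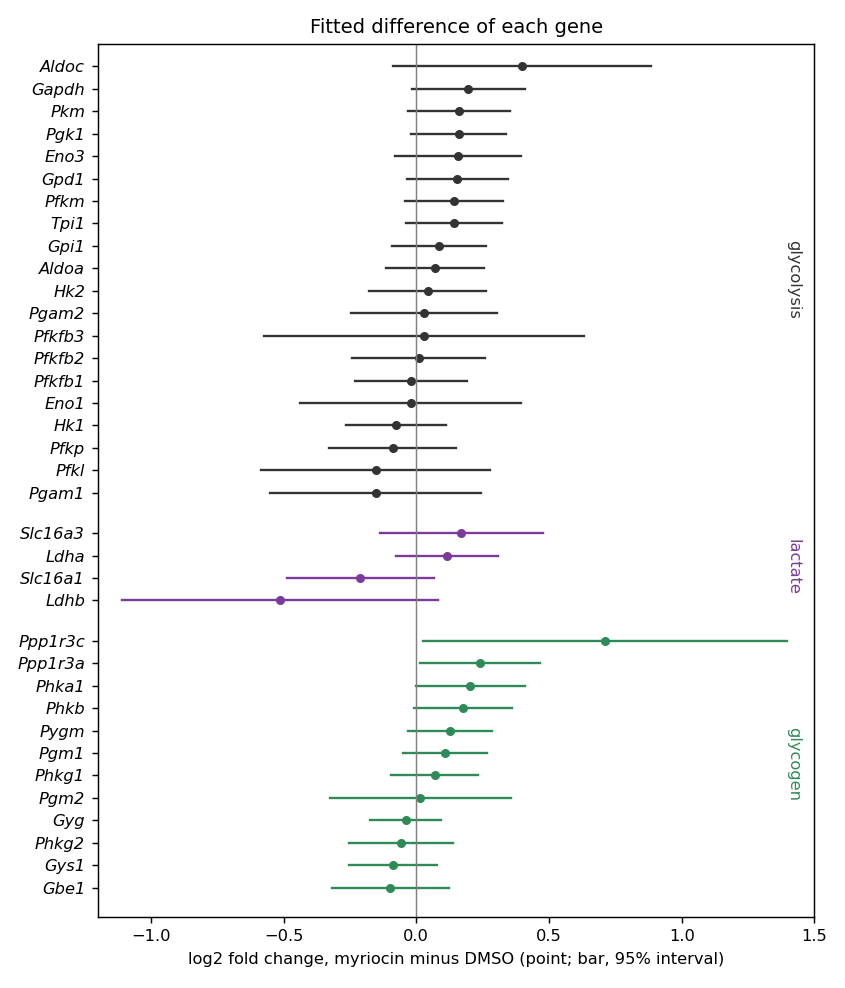
Fitted log2 fold change of each gene, myriocin minus DMSO (points), with its 95% interval (bars), grouped into glycolysis, lactate and glycogen genes. The intervals of Ppp1r3c (0.02 to 1.40) and Ppp1r3a (0.01 to 0.46) lie above 0 before adjustment, and those of the other 34 genes include 0.

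The first steps of glycolysis charge glucose with phosphate. Hk2, the hexokinase of insulin-sensitive muscle, averaged 317 ± 50.4 CPM in DMSO libraries (SD, n = 5) against 327 ± 34.3 CPM in myriocin libraries (SD, n = 6), a log2 fold change of 0.04 that turned slightly negative without DMSO replicate 2 or Myriocin replicate 6. Hk1, the hexokinase of most other tissues, was at 12.5 ± 1.27 and 11.9 ± 1.06 CPM. Gpi1, which converts glucose 6-phosphate to fructose 6-phosphate, was at 1118 ± 101 and 1186 ± 114 CPM. Of these 3 genes none had an unadjusted p under 0.05, and the 95% intervals of their log2 fold changes all lay between -0.26 and 0.26.

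Phosphofructokinase commits the sugar to glycolysis, and Pfkm encodes its muscle form. Pfkm stood at 4286, 3206, 4040.4, 4419 and 4086 CPM in DMSO replicates 1 to 5 and at 4273, 4607, 4187, 4818, 4447 and 4194 CPM in Myriocin replicates 1 to 6. All 6 myriocin libraries were above the DMSO mean of 4007 ± 473 CPM, and 3 of them above every DMSO library. The low end of the DMSO range was DMSO replicate 2. Pfkm had a log2 fold change of 0.14 (SE 0.0868, unadjusted p = 0.124 by edgeR's test), or 0.07 without that library.

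The liver form Pfkl and the platelet form Pfkp were at a small fraction of the Pfkm level. Pfkl was at 30.6 CPM in DMSO replicate 2 and 25.5 CPM in Myriocin replicate 4, and between 13.1 and 18.2 CPM in the other 9 libraries. Both libraries are also the highest of their group in adipocyte markers (1145 and 421 CPM). Its fold change of -0.15 (log2, SE 0.198) turned to 0.07 without DMSO replicate 2.

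The bifunctional PFKFB enzymes make and remove fructose 2,6-bisphosphate, the activator of phosphofructokinase. Pfkfb3 had the widest range between libraries of the glycolytic genes, at 609, 515, 605, 886 and 419 CPM in DMSO replicates 1 to 5 and 339, 765, 1028, 512, 540.0 and 528 CPM in Myriocin replicates 1 to 6. Both the lowest and the highest library were myriocin libraries, 3.03-fold apart. Its mean was 607 ± 174 CPM with DMSO and 619 ± 242 CPM with myriocin, so that the interval of its log2 fold change, -0.58 to 0.63, is wide around a value of 0.03. Pfkfb1, the form of muscle and liver, was at 35.0 ± 4.67 and 34.6 ± 3.79 CPM. Pfkfb2, the heart form, was at 8.30 ± 1.29 and 8.35 ± 0.971 CPM.

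Aldolase A splits fructose 1,6-bisphosphate and gave the most abundant transcript of the set. Aldoa was at 16633, 17936, 17079.8, 19187 and 20504 CPM in DMSO replicates 1 to 5 and 18832, 19038, 18691, 22487, 17837 and 18239.9 CPM in Myriocin replicates 1 to 6. The ranges overlapped, with DMSO replicates 1 and 3 below every myriocin library and Myriocin replicate 4 above every DMSO library, and the log2 fold change was 0.07. Aldoc, the brain form, had only 9 to 19 reads per library, and its log2 fold change of 0.40 (95% interval -0.09 to 0.88) rests on these. Tpi1, which interconverts the triose phosphates, was at 2292 ± 172 CPM with DMSO and 2528 ± 260.1 CPM with myriocin. Gpd1, which links the triose pool to glycerol 3-phosphate and NADH, was at 534 ± 53.2 and 595 ± 66.1 CPM.

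Gapdh, the enzyme that oxidises glyceraldehyde 3-phosphate and a common reference transcript, had the smallest unadjusted p of the glycolytic genes. It stood at 5587, 5108, 6066, 6779.9 and 7072 CPM in DMSO replicates 1 to 5 and at 7119.8, 7132, 6379, 8162, 6963 and 6338 CPM in Myriocin replicates 1 to 6. The 3 lowest libraries were DMSO libraries and 3 myriocin libraries exceeded every DMSO library, yet the ranges overlapped. Means were 6122 ± 814 CPM over the DMSO libraries (SD, n = 5) and 7016 ± 664 CPM over the myriocin libraries (SD, n = 6), a log2 fold change of 0.20 (SE 0.0987, unadjusted p = 0.0659, adjusted p = 0.936 by edgeR's quasi-likelihood test). The fold change was 0.14 without DMSO replicate 2 and 0.25 without DMSO replicate 5.

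Pgk1, phosphoglycerate kinase, and Pkm, pyruvate kinase, catalyse the ATP-yielding steps. Pgk1 was at 596 ± 62.3 CPM with DMSO and 666 ± 56.8 CPM with myriocin, and all 6 myriocin libraries exceeded the DMSO mean. Pkm was at 3363 ± 398 and 3763 ± 292 CPM, again with all 6 above. Both had a log2 fold change of 0.16, with unadjusted p of 0.0766 for Pgk1 and 0.0921 for Pkm in edgeR's test, and that of Pkm was 0.10 without DMSO replicate 2. Eno3, the muscle enolase, was at 5196 ± 727 and 5790.0 ± 812 CPM, with 4 of 6 above the DMSO mean.

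Pgam2, the muscle phosphoglycerate mutase, had 1 high library in each group. It was at 2483 CPM in DMSO replicate 5 and 2423 CPM in Myriocin replicate 4, and between 1574 and 1854 CPM in the other 9 libraries. Both are among the 3 libraries with liver transcripts. The third, DMSO replicate 4, was at 1719 CPM. Its log2 fold change of 0.03 turned to -0.06 without Myriocin replicate 4 and became 0.17 without DMSO replicate 5. The widely expressed forms Pgam1 and Eno1 were highest in DMSO replicate 2, at 9.95 and 168 CPM, against 4.50 to 6.02 and 78.4 to 124 CPM in the other libraries, and their negative fold changes of -0.15 and -0.02 turned to 0.11 and 0.21 without it.

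Of the 20 glycolytic genes, then, 14 had a positive and 6 a negative fold change, with a median of 0.06 (0.10 without DMSO replicate 4 and 0.12 without DMSO replicate 5), and 0 had an unadjusted p under 0.05 in edgeR's test, against 4.68% of all genes. DESeq2 placed Gapdh there (4.67% of all genes), and limma-voom none of the 20 (4.68%). Leaving out DMSO replicate 5 placed Gapdh, Pgk1, Eno3 and Pkm there (4.21%). Leaving out the 3 libraries with liver transcripts placed these and Tpi1 there (7.12%). In bulk muscle a difference in the number of fibres of a type cannot be told apart from a difference in RNA per fibre.

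**Figure D3:**
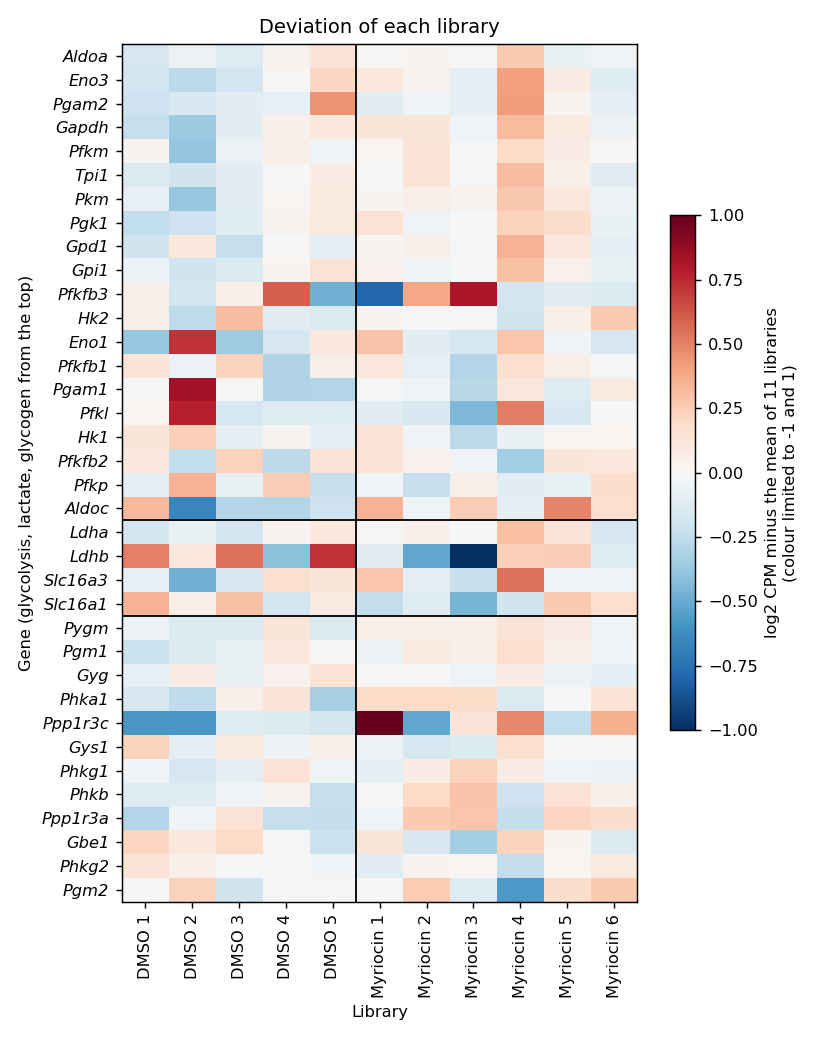
Heat map of the 36 genes (rows) in the 11 libraries (columns), as log2 CPM minus the mean over all libraries, red for higher and blue for lower, with colour limited to -1 and 1. Myriocin replicate 4 is the highest library for 14 genes, DMSO replicate 2 is the lowest for 11 and the highest for 5 (Hk1, Pfkl, Pfkp, Pgam1 and Eno1), and Ppp1r3c, Pfkfb3 and Ldhb vary most among the abundant genes.

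Myriocin replicate 4 was the highest library for 14 of the 36 genes, 10 of them enzymes of the glycolytic chain and lactate dehydrogenase A, namely Gpi1, Pfkm, Aldoa, Tpi1, Gapdh, Pgk1, Eno3, Pkm, Ldha and, on the side branch, Gpd1. DMSO replicate 2 was the lowest library for 11 genes, among them Hk2, Gpi1, Pfkm, Tpi1, Gapdh, Eno3 and Pkm. The same library was the highest for Hk1, Pfkl, Pfkp, Pgam1 and Eno1, which are not the muscle forms, and it is the library with the most neutrophil and adipocyte marker reads. Without Myriocin replicate 4 the log2 fold changes were 0.03 for Gpi1, 0.02 for Aldoa, 0.09 for Tpi1 and Gpd1 and 0.08 for Eno3. That of Ldha was 0.06. The other genes of the chain reached their smallest fold changes on leaving out a DMSO library. These were 0.07 for Pfkm, 0.14 for Gapdh and 0.10 for Pkm without DMSO replicate 2, and 0.12 for Pgk1 without DMSO replicate 1.

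In most families the muscle form made up nearly all of the transcripts. Computed from counts per kilobase, Hk2 was 97.3% ± 0.583 of the 2 hexokinases with DMSO and 97.5% ± 0.268 with myriocin (SD, n = 5 and 6). Pfkm was 99.7% of the phosphofructokinases in DMSO libraries, Pgam2 99.9% of the mutases, Eno3 99.3% of the enolases, Pygm 99.8% of the glycogen phosphorylases, Phka1 98.9% and Phkg1 98.2% of their phosphorylase kinase subunits, and Pgm1 99.8% of the phosphoglucomutases. Minor forms took larger shares in other families: Ppp1r3a 25.3%, Ldhb 12.4%, Slc16a1 12.4%, Pfkfb4 9.43% and Pfkfb1 9.23% in DMSO libraries. Dividing by exon length matters where isoform lengths differ: from undivided read counts Ldhb made up 6.33% of its pair in DMSO libraries, and Ppp1r3c 53.7%, against 12.4% and 74.7% per kilobase. Reads of Pgam1, Eno1 and Ldha may be shared with processed pseudogenes and then stay unassigned, so their shares may come out too low. A split into 13 muscle forms and 11 other forms, made with these results known, gave a positive fold change for 12 of the muscle forms (all but Gys1, median 0.12) and 3 of the others (Aldoc, Pgm2 and Ppp1r3c, median -0.08). Without TMM scaling these counts were 11 and 2. The median of the other forms changed sign without DMSO replicate 2, when 6 of 11 were positive with a median of 0.07, and 10 of the 13 muscle forms were. This split was not tested.

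Lactate dehydrogenase is a tetramer of A and B chains. The A chain, encoded by Ldha, dominates in fast glycolytic fibres and favours lactate formation, while the B chain, encoded by Ldhb, dominates in heart and oxidative fibres. Ldha was at 2132, 2319, 2131, 2467 and 2608 CPM in DMSO replicates 1 to 5 and 2440.0, 2512, 2413, 2985, 2656 and 2156 CPM in Myriocin replicates 1 to 6. The ranges overlapped, with 5 of 6 myriocin libraries above the DMSO mean, and the log2 fold change was 0.12 (SE 0.0897, unadjusted p = 0.216 by edgeR's test), or 0.06 without Myriocin replicate 4.

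Ldhb (chr6:142490249-142507957 on the minus strand, GRCm38) had the most negative fold change of the 36 genes. It was at 175, 134, 180.1, 92.8 and 203 CPM in DMSO replicates 1 to 5 and at 115, 86.2, 53.6, 145, 147 and 113 CPM in Myriocin replicates 1 to 6. Each myriocin library was below the DMSO mean of 157 ± 43.8 CPM, and 2 were below every DMSO library, but DMSO replicate 4 lay low among the myriocin libraries. The myriocin mean was 109.9 ± 35.7 CPM, and the log2 fold change was -0.51 (SE 0.270, 95% interval -1.11 to 0.08, unadjusted p = 0.0841, adjusted p = 0.936 by edgeR's quasi-likelihood test). The Ldhb log2 fold change ranged from -0.65 (unadjusted p = 0.0263) without DMSO replicate 4 to -0.37 without Myriocin replicate 3.

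As a share of the lactate dehydrogenase transcripts per kilobase, Ldhb made up 14.7%, 10.8%, 15.1%, 7.35% and 14.1% in DMSO replicates 1 to 5 and 9.01%, 6.75%, 4.48%, 9.31%, 10.4% and 9.92% in Myriocin replicates 1 to 6. The means were 12.4% ± 3.31 (SD, n = 5) and 8.32% ± 2.27 (SD, n = 6). All 6 myriocin libraries were below the DMSO mean, and 4 of the 5 DMSO libraries were above all of them. DMSO replicate 4 made the groups overlap.

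**Figure D4:**
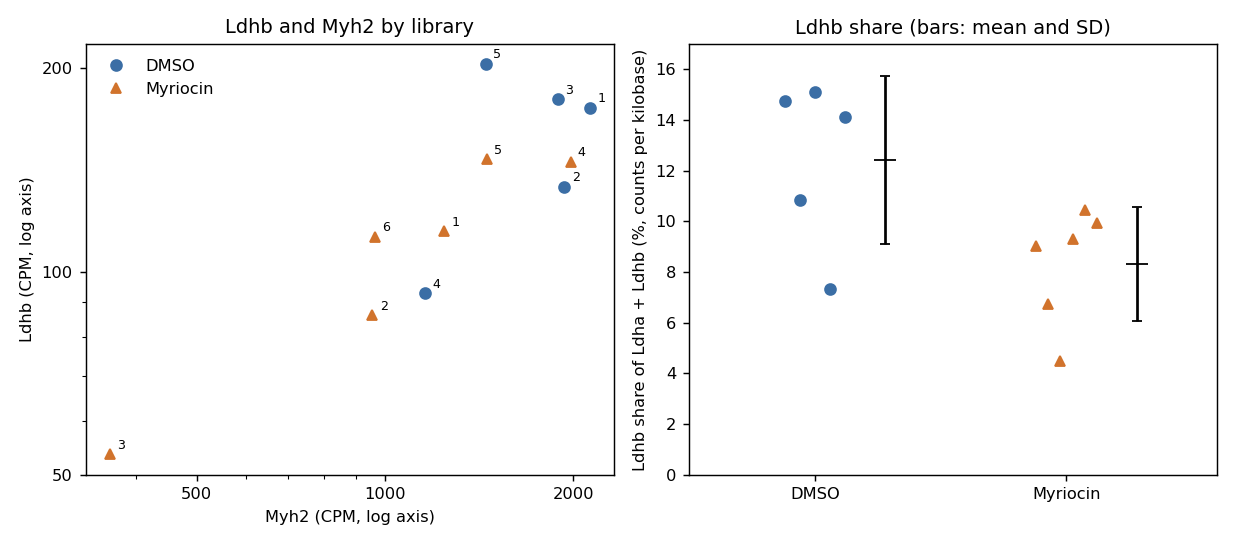
Left, Ldhb against the fast oxidative myosin Myh2 in the 11 libraries, both in CPM on log axes, numbered by replicate; blue circles are DMSO and orange triangles myriocin. Right, Ldhb as a percentage of Ldha plus Ldhb counts per kilobase, each symbol a library, with mean and SD; the means are 12.4% and 8.32%, and Myriocin replicate 3 is lowest in both panels.

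Ldhb was set beside Myh2, the myosin heavy chain of fast oxidative type IIA fibres. Across the 11 libraries the correlation of log2 CPM was r = 0.88 (permutation p = 0.00086, adjusted 0.00258 over 6 relations), with Spearman's rho = 0.75 (permutation p = 0.00998, adjusted 0.0299). It was 0.64 without Myriocin replicates 3 and 2, the libraries farthest from the median of Myh2, 0.84 after removing the group means, and 0.96 without the 3 libraries that hold liver transcripts. Myh2 itself was at 2127, 1936, 1891, 1159 and 1449 CPM in DMSO replicates 1 to 5 and 1245, 955, 363, 1980.3, 1457 and 965 CPM in Myriocin replicates 1 to 6, a log2 fold change of -0.56 (unadjusted p = 0.141 by edgeR's test). Its lowest library, Myriocin replicate 3, was also the lowest for Ldhb. Of the other relations, Pygm with Myh4, the myosin of fast glycolytic IIB fibres, gave r = 0.89 (permutation p = 0.00011, adjusted 0.00066) and rho = 0.78 (permutation p = 0.00709, adjusted 0.0299), 0.86 without DMSO replicates 2 and 3, and 0.80 after removing the group means. Slc16a1 with Myh2 gave r = 0.66 (permutation p = 0.0199, adjusted 0.0399) but rho = 0.50 (permutation p = 0.121, adjusted 0.182), and 0.29 without Myriocin replicates 3 and 2, so the relation rests on those libraries. Ldhb with Myh7, the slow myosin, had r = 0.46, Slc16a3 with Myh4 had 0.55 and Ldha with Myh4 had 0.46, with adjusted permutation p of 0.157, 0.123 and 0.157. Their rho was 0.36, 0.32 and 0.58 (adjusted permutation p of 0.327, 0.339 and 0.128), and r without the 2 farthest libraries was 0.46, 0.098 and 0.33. After removing the group means r was 0.62, 0.49 and 0.27, and for Slc16a1 with Myh2 it was 0.57. Within the 6 myriocin libraries alone, where no test was run, r was 0.96 for Ldhb with Myh2 and 0.92 for Ldhb with Myh7. For Pygm with Myh4 it was 0.61, for Ldha with Myh4 0.57, for Slc16a1 with Myh2 0.51 and for Slc16a3 with Myh4 0.13. The permutations shuffled libraries without regard to treatment, so their p also reflects any difference between the groups that both genes share. No p was computed for r after removing the group means. Both genes of a pair share the library's depth and scaling.

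Lactate crosses the fibre membrane through monocarboxylate transporters. Slc16a3, which encodes MCT4, the export carrier of fast fibres, was at 344 ± 58.5 CPM with DMSO and 387 ± 80.7 CPM with myriocin, and its log2 fold change of 0.17 became 0.06 without Myriocin replicate 4, which held 527 CPM. Slc16a1, which encodes MCT1, the carrier of oxidative fibres and other tissues, was at 45.8, 37.5, 44.1, 31.5 and 38.3 CPM in DMSO replicates 1 to 5 and 30.5, 33.0, 26.1, 31.3, 43.2 and 40.4 CPM in Myriocin replicates 1 to 6. In 4 of 6 myriocin libraries it was below the DMSO mean, and in 3 below every DMSO library. Its log2 fold change was -0.21 (SE 0.129, unadjusted p = 0.126 by edgeR's test). Slc16a1 made up 12.4% ± 2.71 of the 2 carriers per kilobase with DMSO and 9.82% ± 2.42 with myriocin. Thus 2 lactate genes had positive and 2 negative fold changes, with a median of -0.05 (-0.01 without Myriocin replicate 3 and -0.09 without Myriocin replicate 5). An unadjusted p under 0.05 in edgeR's test was reached by 0 of the 4, against 4.68% of all genes. Ldhb and Slc16a1 reached it without DMSO replicate 4 (4.95% of all genes), and Slc16a1 without Myriocin replicate 5 (3.94%).

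The promoters of both dehydrogenase genes are shown because the pair had fold changes of opposite sign. They run from 250 bases before to 50 bases after the RefSeq transcription start (GRCm38.p6), 5′ to 3′ on the gene's strand. Capitals mark ACGTG or its reverse complement CACGT, a form of the core of the hypoxia response element. This form lies inside CACGTG, the E-box of basic helix-loop-helix zipper factors. Capitals also mark CAGCTG, an E-box of myogenic factors. Ldha (chr7:46845554-46845853, plus strand, 1 of 2 listed starts) and Ldhb (chr6:142507908-142508207, minus strand) read as follows.
Ldha: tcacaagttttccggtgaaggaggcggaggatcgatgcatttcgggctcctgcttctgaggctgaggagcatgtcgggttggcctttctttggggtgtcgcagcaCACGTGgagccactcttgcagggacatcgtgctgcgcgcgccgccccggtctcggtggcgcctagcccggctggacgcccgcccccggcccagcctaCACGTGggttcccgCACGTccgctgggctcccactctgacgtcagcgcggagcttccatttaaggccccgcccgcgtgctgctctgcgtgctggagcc
Ldhb: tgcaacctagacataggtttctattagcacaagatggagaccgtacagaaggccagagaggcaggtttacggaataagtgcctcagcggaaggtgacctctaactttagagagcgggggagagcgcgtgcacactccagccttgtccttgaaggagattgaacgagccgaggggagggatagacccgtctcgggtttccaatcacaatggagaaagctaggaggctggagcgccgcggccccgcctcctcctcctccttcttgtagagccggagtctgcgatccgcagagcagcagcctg

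The Ldha window held 3 runs with the ACGTG core and the Ldhb window none. The related form GCGTG was not marked, and both windows contain it. For the whole set, 52 promoter entries matched 35 of the 36 genes, Gpd1 being unmatched. ACGTG, on either strand, was in 44.2% of these entries and in 19.6% of all 32851 mouse promoters of the same length. CACGTG was in 13.5% against 7.15%, and CAGCTG in 25.0% against 16.3%. ACGTG and CACGTG each hold a CG pair, and the promoters compared were not matched for their content of G and C. The motifs were chosen after several had been searched, entries of 1 gene overlap, and a match describes letters, not binding.

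Glycogen is built on the primer protein glycogenin by glycogen synthase and branching enzyme. Gys1, the muscle glycogen synthase, averaged 540.3 ± 47.4 CPM over the DMSO libraries (SD, n = 5) and 508 ± 41.7 CPM over the myriocin libraries (SD, n = 6), with 5 of 6 myriocin libraries below the DMSO mean, a log2 fold change of -0.09 that became -0.04 when DMSO replicate 1 was left out and -0.13 when Myriocin replicate 4 was. Gyg, glycogenin, was the steadiest gene of the set at 363 ± 24.2 and 353 ± 15.2 CPM, 1.17-fold between the lowest and the highest library. Gbe1, the branching enzyme, was at 53.1 ± 6.21 and 49.6 ± 7.02 CPM. All 3 genes of synthesis thus had negative fold changes, with 95% intervals between -0.32 and 0.12. Pgm1, which interconverts glucose 1-phosphate and glucose 6-phosphate, was at 1378 ± 121 and 1486 ± 82.3 CPM, and Pgm2 at 2.21 ± 0.239 and 2.24 ± 0.449 CPM.

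Pygm, the muscle glycogen phosphorylase that releases glucose 1-phosphate, stood at 8240.0, 7834, 7795, 9359 and 7765 CPM in DMSO replicates 1 to 5 and at 8977, 8961, 8887, 9414, 9092 and 8393 CPM in Myriocin replicates 1 to 6. All 6 myriocin libraries were above 4 of the 5 DMSO libraries, and DMSO replicate 4 lay among the highest. The Pygm log2 fold change was 0.13 (SE 0.0737, unadjusted p = 0.106 by edgeR's test) and 0.18 (unadjusted p = 0.0272) without DMSO replicate 4.

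Phosphorylase kinase switches the phosphorylase on. Its regulatory alpha subunit Phka1 was at 779, 731, 899.8, 950.1 and 689.5 CPM in DMSO replicates 1 to 5 and 991, 999, 988, 788, 868 and 959.6 CPM in Myriocin replicates 1 to 6, with 4 myriocin libraries above every DMSO library and Myriocin replicates 4 and 5 among the DMSO values. The Phka1 log2 fold change was 0.20 (SE 0.0960, unadjusted p = 0.0524 by edgeR's test). The beta subunit Phkb was at 449 ± 32.3 and 507 ± 59.8 CPM, again with 4 myriocin libraries above every DMSO library, and the Phkb log2 fold change was 0.18 (SE 0.0871, unadjusted p = 0.0625). DESeq2 gave an unadjusted p of 0.0380 for Phka1 and 0.0484 for Phkb, with adjusted p of 0.997. The catalytic gamma subunit Phkg1 was at 456 ± 37.7 and 478 ± 40.8 CPM, and Phkg2, the form of liver and testis, at 5.15 ± 0.255 and 4.95 ± 0.406 CPM.

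The glycogen-targeting subunits of protein phosphatase 1 tether the phosphatase to glycogen, where it activates the synthase and turns off the phosphorylase, and they gave the smallest unadjusted p of the set. Ppp1r3a, the muscle form (chr6:14713977-14755274, minus strand, GRCm38), was at 189, 227, 256, 198 and 196 CPM in DMSO replicates 1 to 5 and 225, 277, 281, 196, 268 and 261 CPM in Myriocin replicates 1 to 6. In 4 myriocin libraries it was above every DMSO library, and Myriocin replicate 4 was as low as the low DMSO libraries. It averaged 213 ± 28.3 CPM over the DMSO libraries (SD, n = 5) and 251 ± 33.4 CPM over the myriocin libraries (SD, n = 6), a log2 fold change of 0.24 (SE 0.106, 95% interval 0.01 to 0.46, unadjusted p = 0.0403, adjusted p = 0.936 by edgeR's quasi-likelihood test). The unadjusted p ranged from 0.00619 without Myriocin replicate 4 to 0.101 on leaving out each library in turn.

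Ppp1r3c, the widely expressed targeting subunit also called PTG (chr19:36731731-36736653, minus strand, GRCm38), had the most positive fold change of the 36 genes. It was at 205, 205, 283, 279 and 271 CPM in DMSO replicates 1 to 5 and 811, 214, 335, 429, 259 and 392 CPM in Myriocin replicates 1 to 6. In 4 myriocin libraries it exceeded every DMSO library, while Myriocin replicates 2 and 5 lay within the DMSO range, and Myriocin replicate 1 stood far above all others. The Ppp1r3c log2 fold change was 0.71 (SE 0.310, 95% interval 0.02 to 1.40, unadjusted p = 0.0438, adjusted p = 0.936 by edgeR's quasi-likelihood test). Without Myriocin replicate 1 it was 0.39 (unadjusted p = 0.0525). Ppp1r3c took 74.7% ± 3.53 of the 2 targeting subunits per kilobase with DMSO and 77.9% ± 8.77 with myriocin.

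**Figure D5:**
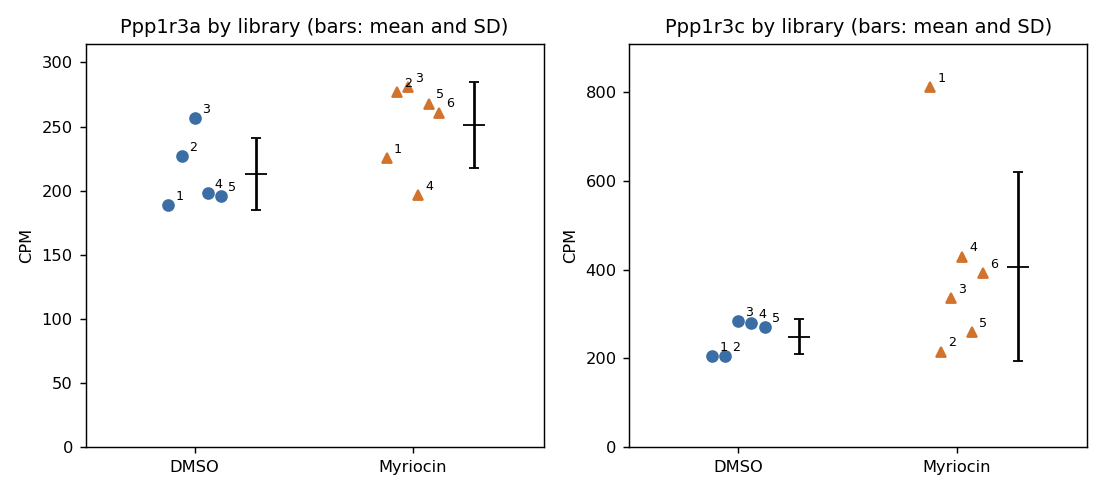
Ppp1r3a (left) and Ppp1r3c (right) in CPM by group, each symbol a library numbered by replicate, with mean and SD beside it. For Ppp1r3a 4 of 6 myriocin libraries lie above every DMSO library, and for Ppp1r3c Myriocin replicate 1 stands at 811 CPM above the other 10 libraries.

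The promoters of these subunits, the only genes of the set with an unadjusted p under 0.05, are shown over the same window and with the same capitals. Ppp1r3a (chr6:14755225-14755524, minus strand) and Ppp1r3c (chr19:36736555-36736854, minus strand) read as follows.
Ppp1r3a: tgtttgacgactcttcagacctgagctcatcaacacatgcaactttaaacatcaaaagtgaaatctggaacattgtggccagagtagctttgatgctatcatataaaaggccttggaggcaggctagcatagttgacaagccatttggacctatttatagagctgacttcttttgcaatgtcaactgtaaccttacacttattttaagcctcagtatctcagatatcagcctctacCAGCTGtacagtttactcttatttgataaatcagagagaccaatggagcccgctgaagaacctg
Ppp1r3c: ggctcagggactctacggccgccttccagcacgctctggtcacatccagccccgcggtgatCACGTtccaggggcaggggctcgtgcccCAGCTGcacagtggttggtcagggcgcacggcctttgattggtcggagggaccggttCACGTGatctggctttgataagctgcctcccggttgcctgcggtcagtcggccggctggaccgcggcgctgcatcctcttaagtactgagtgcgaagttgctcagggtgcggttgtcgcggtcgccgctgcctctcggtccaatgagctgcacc

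The Ppp1r3a window is poor in G and C (41.0%) and held 1 CAGCTG. The Ppp1r3c window (65.3% G and C) held 1 CAGCTG and 2 runs with the ACGTG core, 1 of them a whole CACGTG. Of the 12 glycogen genes 8 had positive and 4 negative fold changes, with a median of 0.09 that became 0.14 without DMSO replicate 4, and 2 had an unadjusted p under 0.05, against 4.68% of all genes. Their share of the gene reads was 1.29% ± 0.0861 with DMSO and 1.38% ± 0.0268 with myriocin.

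Other genes of these pathways, from lists drawn up with earlier results of these data known, gave 0 with an adjusted p under 0.05 as well. Over all genes tested, 46.3% had positive fold changes and 4.68% an unadjusted p under 0.05 in edgeR's test. Of 13 tested glycolytic isoforms and regulators outside the set, 7 had positive fold changes, and 2 had such a p. These were Pfkfb4, a further PFKFB form, at 44.4 ± 5.34 and 53.0 ± 4.44 CPM (log2 fold change 0.25, unadjusted p = 0.00936 by edgeR's test), and Gpd2, the mitochondrial partner of Gpd1 in the glycerol phosphate shuttle, at 163 ± 15.8 and 195 ± 20.5 CPM (0.25, unadjusted p = 0.0102). All 6 myriocin libraries exceeded the DMSO mean for both. Among 29 further glycogen genes, 15 had positive fold changes and 1 an unadjusted p under 0.05, against 4.68% of all genes. This was Ugp2, which makes the UDP-glucose used by glycogen synthase, at 531 ± 27.1 and 463 ± 40.1 CPM (log2 fold change -0.20, unadjusted p = 0.0163 by edgeR's test), with all 6 myriocin libraries below the DMSO mean.

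For glucose uptake, 8 of 14 tested genes had positive fold changes (46.3% of all genes) and 0 had an unadjusted p under 0.05 (4.68%). Slc2a4, which encodes the insulin-responsive carrier GLUT4 and is named here after its values were seen, was at 539 ± 37.1 CPM with DMSO and 538 ± 54.1 CPM with myriocin. In edgeR's test the smallest p were those of Rab13, a small GTPase of vesicle traffic (log2 fold change -0.19, unadjusted p = 0.126), and Slc2a9, a urate carrier of the glucose carrier family (0.32, unadjusted p = 0.151). Of 9 genes of lactate and pyruvate transport outside the set, 2 had positive fold changes and 0 an unadjusted p under 0.05. Bsg, the chaperone of MCT1 and MCT4, was at 644 ± 80.2 and 711 ± 87.2 CPM (0.14, unadjusted p = 0.162 by edgeR's test), and Slc16a8, the MCT3 gene, at 1.5 ± 0.198 and 1.67 ± 0.214 CPM (0.16, unadjusted p = 0.321).

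Of 7 NADH shuttle genes 1 had a positive fold change (46.3% of all genes) and 0 an unadjusted p under 0.05 (4.68%). The cytosolic enzymes of the malate-aspartate shuttle Got1 and Mdh1 had log2 fold changes of -0.17 and -0.16 (unadjusted p = 0.125 and 0.128 by edgeR's test). Of 5 tested gluconeogenic genes 1 was positive, Fbp2, the muscle fructose bisphosphatase, at 34.1 ± 6.60 and 40.2 ± 6.35 CPM. Pck2, the mitochondrial phosphoenolpyruvate carboxykinase, was at 7.08 ± 0.437 and 6.05 ± 0.801 CPM (-0.23, unadjusted p = 0.0460 by edgeR's test). It was the 1 gene of these 5 at an unadjusted p under 0.05, against 4.68% of all genes. Of 22 transcription factors and oxygen-sensing regulators of glycolytic genes, 7 were positive and 0 had an unadjusted p under 0.05, with the smallest p in edgeR's test for Esrra, a nuclear receptor of oxidative metabolism (-0.13, unadjusted p = 0.20), and Egln3, a prolyl hydroxylase (-0.20, unadjusted p = 0.202).

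Some counts are uncertain by their position. More than 10% of the exon bases overlap another gene for Gpi1, Pfkm, Pfkfb2, Gpd1, Pkm, Phkg2 and Pgm1, and whether counting used strand is not stated. Aldoa has a second gene model, with 21748 reads in all libraries against 4710114. Reads of Gapdh, Ldha, Pgk1, Pgam1, Aldoa, Tpi1 and Eno1 may be shared with processed pseudogenes, and reads with several alignments, 15.2% to 18.1% of each library, were not assigned to genes.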

How the data were processed

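Per the labels' protocols, DNBseq was used to sequence total RNA of 11 quadriceps libraries. Raw read counts per Ensembl gene were deposited. The submitters' processing notes name STAR 2.5.2b, HTSeq 0.6.0 and GRCm38. The sources used here give neither the strand setting nor the annotation release. The 5 HTSeq summary lines, 24.8% to 28.2% of a library, were left out of library sizes and tests. Symbols and exon lengths came from GENCODE M21, which matched 53360 of 53465 genes. With 22241131 to 23163721 gene reads per library, 3 counts correspond to 0.130 to 0.135 CPM, a limit that covers counting error only. All pairs of libraries within a group differed beyond sampling noise (chi-square per degree of freedom 8.91 to 48.9).

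Genes were filtered with filterByExpr (minimum count 10, total 15), scaled by TMM and tested with edgeR 4.0.16 (quasi-likelihood F test, R 4.3.3), with Benjamini-Hochberg adjustment across 14117 genes and a threshold of 0.05. The script was tested on simulated data. CPM values are after TMM, except the shares of reads and the summed cell type markers, which use library totals. Correlations used 100000 permutations, 2-sided, over all libraries without regard to group. Alternatives were DESeq2 1.42.0, limma-voom (limma 3.58.1), other scalings and filters, the replicate number as a block, 1 surrogate variable (sva 3.50.0) and leaving out libraries. The 36 genes, the other lists, the isoform split and the tests were chosen with earlier results of these data known. Named were all 36 genes, from each other list the 2 genes of lowest p (1 is not reported here), myosin heavy chains and tissue markers.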

Additional observations from a re-analysis of the deposited data

Results flagged for a closer look

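Within a group, 7 of 72 gene and group combinations had 1 library far from the others by Dixon's gap ratio. The nominal rate of about 1 in 20 holds for independent normal values, whereas these genes were measured in the same libraries. The ratio was not applied to all genes tested, so the count does not show an excess in this set. Myriocin replicate 4 stood high for Gpi1 (1406 CPM, others 1091 to 1184), Aldoa (22487 CPM, others 17837 to 19038) and Pgam2 (2423 CPM, others 1682 to 1854). DMSO replicate 5 stood high for Pgam2 (2483 CPM, others 1574 to 1719). DMSO replicate 2 stood high for Pfkl (30.6 CPM, others 15.8 to 18.2) and Pgam1 (9.95 CPM, others 4.50 to 5.60). Myriocin replicate 1 stood high for Ppp1r3c (811 CPM, others 214 to 429). Beside these, liver markers summed to 111 CPM in Myriocin replicate 4 and 91.4 CPM in DMSO replicate 5, and neutrophil markers to 439 CPM in DMSO replicate 2. Their part in these values was not tested.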

How the results depend on the processing

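Over 23 alternatives 27 of the 36 genes kept the sign of their fold change, and 0 passed the adjusted threshold in any, with a lowest adjusted p of 0.393 (Ppp1r3a without Myriocin replicate 4). Genes past the threshold over all genes numbered 0 in edgeR, 6 with DESeq2, 1 with 1 surrogate variable and 0 in each of the others. The 36 genes at unadjusted p under 0.05 numbered 2 (4.68% of all genes), and 6 with DESeq2 (4.67%), 6 without a filter (3.98%), 1 without TMM (5.60%), 11 without the 3 libraries with liver transcripts (7.12%) and 6 without the 3 libraries farthest out (DMSO replicates 2 and 5, Myriocin replicate 4), where 7.97% of all genes had such a p. On leaving out each library in turn that count ran from 0 to 6, and the medians of the log2 fold changes ran from 0.052 to 0.12 for glycolysis, -0.09 to -0.01 for lactate and 0.07 to 0.14 for glycogen. Without the liver libraries the medians were 0.11 and 0.14 for glycolysis and glycogen. The cause of these changes was not tested.

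Signs turned for 9 genes. With limma-voom the Pfkfb3 log2 fold change was -0.014, the Eno1 log2 fold change 0.028 and the Pgm2 log2 fold change -0.0050. Without TMM the Pfkfb2 log2 fold change was -0.024, that of Pfkfb3 -0.0032, the Pgam2 log2 fold change -0.0036 and that of Pgm2 -0.021. With 1 surrogate variable Pfkfb2 was at -0.012, Pfkfb3 at -0.0017 and Eno1 at 0.067, and without the 3 libraries farthest out Hk2 was at -0.028, Pfkfb3 at -0.13, Pgam1 at 0.029 and Eno1 at 0.27. Over the left-out libraries Hk2 ran from -0.012 to 0.13, Pfkl from -0.29 to 0.072, Pfkfb1 from -0.089 to 0.035, Pfkfb2 from -0.051 to 0.069, Pfkfb3 from -0.18 to 0.21, Pgam1 from -0.24 to 0.11, Pgam2 from -0.062 to 0.17, Eno1 from -0.11 to 0.21 and Pgm2 from -0.037 to 0.11. Without DMSO replicate 2, an alternative chosen after seeing the data, the minor shares in DMSO were 0.198% for Pfkl, 0.119% for Pgam1 and 0.536% for Eno1, against 0.253%, 0.147% and 0.665%.

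The replicate block over the 10 libraries with shared numbers put 4 of the 36 genes at unadjusted p under 0.05 (3.63% of all genes), with a Pfkfb2 log2 fold change of -0.0085, Eno1 at 0.066 and Pgm2 at -0.046, and called 0 genes. Libraries with the same number did not deviate together (correlations -0.0035, -0.13, 0.075, 0.087 and -0.10), and 0 of the 5 DMSO libraries correlated best with their own number, so the numbers were not taken as pairs.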
